A study of Mus musculus with 4 samples.

Results

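The genes described here are 48 mouse genes whose products license replication origins, unwind and copy DNA, supply its nucleotides and rebuild chromatin behind the fork. They were taken from a fixed list by symbol, and all 48 had a row among the 22524 genes counted in each library. RNA was sequenced from tdTomato-positive cells sorted out of pre-tumorigenic dermal hyperplasia of mouse skin, with 2 libraries in each of 2 groups. In the Ezh2Y646N group the mice carried NrasQ61K driven by the tyrosinase promoter (Tyr::NrasQ61K) and, in the ColA1 locus, an Ezh2Y646N allele behind a lox-stop-lox cassette. In the NrasQ61K group the mice carried Tyr::NrasQ61K without the Ezh2 allele. Both groups shared Tyr::CreERT2, a Cre recombinase that tamoxifen activates in cells using the tyrosinase promoter, and the reporter R26R-LSL-tdTomato, and both received tamoxifen, so no group lacks oncogenic Nras. The labels give no age, tamoxifen dose or interval. They number the libraries of each group 1 and 2 without saying whether these came from separate animals, so every p-value here is set against the spread of these libraries, which may be technical.

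A replication origin is licensed in G1 phase, when the origin recognition complex, Cdc6 and Cdt1 load the ring-shaped Mcm helicase onto DNA. In S phase Cdc45 and the GINS complex switch the helicase on, polymerases copy the separated strands, and the sliding clamp Pcna holds the polymerases on their template. Most of these genes are transcribed in late G1 and S phase under E2F transcription factors, which are released when the retinoblastoma protein is phosphorylated, so their RNA is commonly read as a sign of cycling cells. Oncogenic Ras signalling drives cells towards this step, and melanocytes of resting skin divide rarely.

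Total counts were 18115390 and 15083133 in the Ezh2Y646N libraries and 14808801 and 20600297 in the NrasQ61K libraries. Of the 14265 genes tested, 157 were higher and 96 lower in Ezh2Y646N at an adjusted p under 0.05 in edgeR's quasi-likelihood test. Ezh2 itself stood at 135 and 91.6 CPM (counts of a gene scaled to 1000000 counts of the library) in the Ezh2Y646N libraries, against 171 and 75.1 CPM in the NrasQ61K libraries, and its log2 fold change was -0.11, with SE 0.39 and an adjusted p of 0.944 in edgeR. These counts do not separate the mutant transcript from the endogenous one. All 8 melanocyte markers were detected, with a summed level of 3806 and 3922 CPM in the Ezh2Y646N libraries and 2605 and 3406 CPM in the NrasQ61K libraries. Keratinocyte RNA was more abundant than that: 6 suprabasal markers summed to 39651 and 28045 CPM in the Ezh2Y646N libraries and to 3136 and 8224 CPM in the NrasQ61K libraries. The replication RNA measured here is that of the whole sorted population. In such bulk samples, fewer cycling cells and less RNA per cycling cell cannot be told apart.

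None of the 48 replication genes passed the test for a difference between the groups, where 1.77% of all tested genes did. Of the 48, 46 were higher in replicate 1 than in replicate 2 of both groups, against 27.7% of all tested genes. Summed over the 48 genes, their RNA amounted to 2569.6 and 1614 CPM in the Ezh2Y646N libraries and to 2625 and 1555 CPM in the NrasQ61K libraries. In each group replicate 1 was high and replicate 2 was low, and the high and low libraries of one group lay close to those of the other. As a share of all counts, the 48 genes took 0.247% and 0.155% in the Ezh2Y646N libraries and 0.280% and 0.157% in the NrasQ61K libraries. The 95% Wilson intervals of these shares, which cover counting error only, were 0.245% to 0.249%, 0.153% to 0.157%, 0.278% to 0.283% and 0.156% to 0.159%.

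**Figure D1:**
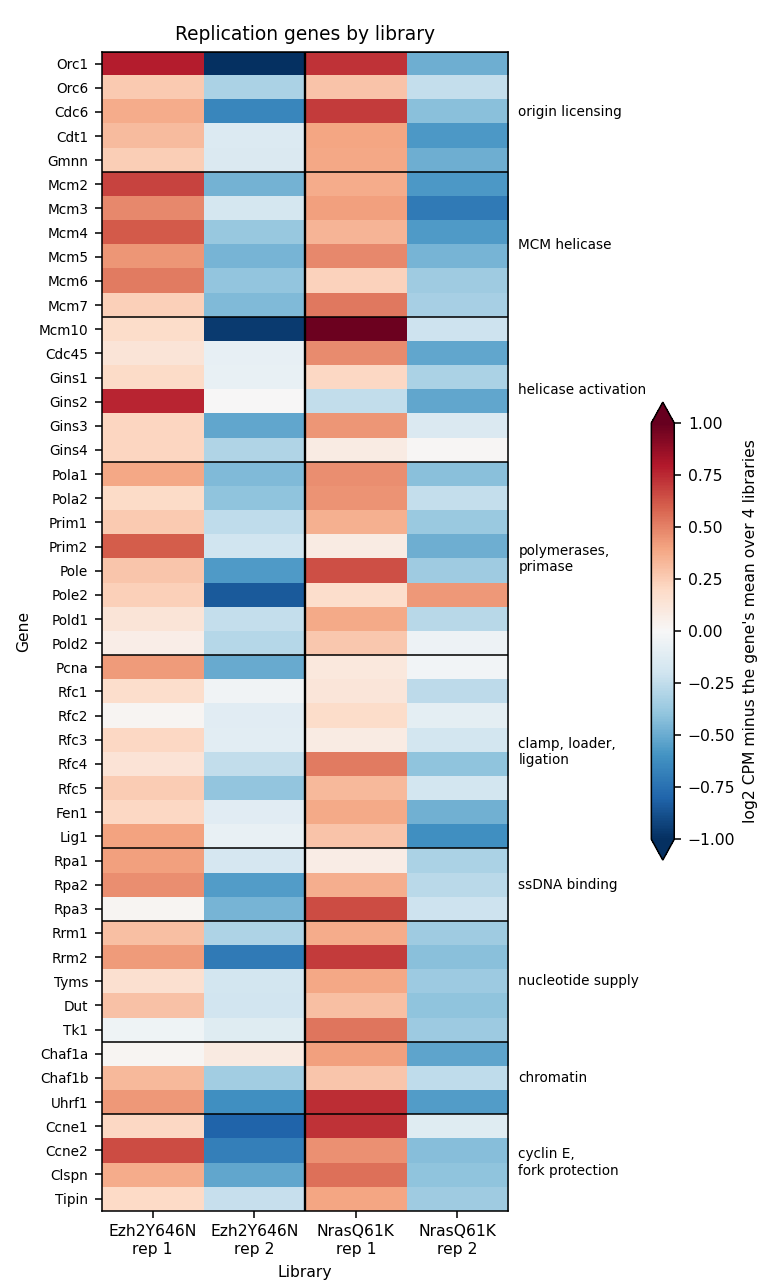
Level of each of the 48 replication genes (rows, grouped by role) in each library (columns), as log2 CPM minus the gene's own mean over the 4 libraries; red is above that mean and blue below it, and the colours are capped at 1. Replicate 1 of both groups is red and replicate 2 of both groups is blue in nearly all rows, with Chaf1a, Gins2 and Pole2 among the exceptions.

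In edgeR's test 0 of the 48 genes passed an adjusted p of 0.05, where 1.77% of all tested genes did, 1.1% being higher and 0.673% lower in Ezh2Y646N. DESeq2 and limma voom also called 0 of 48, where they called 6.5% and 1.48% of all tested genes. An unadjusted p under 0.05 was found for 1 replication gene, Gins2, in edgeR, and in 14.3% of all genes; DESeq2 and voom each had 1 as well, where their shares of all genes were 14.4% and 14%. The adjusted p-values of the 48 genes in edgeR ran between 0.33 and 0.997. The log2 fold change was above 0 in 17 genes (35.4%) and below 0 in 31, where 46% of all tested genes were above 0. The median over all tested genes was -0.04, and that of the 48 genes was also -0.04. The sign of that median depended on the libraries used. It was -0.36 without Ezh2Y646N replicate 1, 0.21 without Ezh2Y646N replicate 2, 0.38 without NrasQ61K replicate 1 and -0.31 without NrasQ61K replicate 2. With 1 library left out in turn, 43 of the 48 fold changes changed sign, and those of Mcm10, Gins2, Pole2, Ccne1 and Pold2 kept theirs. Sign changes were not counted over all tested genes.

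These values do not show that the groups express the genes alike. The estimate was within 0.5 of 0 on the log2 scale for 44 genes, and the 95% interval of the difference included 0 for 47. For 28 genes that interval lay inside a 2-fold change in either direction, so a larger difference is outside the interval for them. For the other 20 genes it reached 2-fold in some direction. The widest reach was to -1.92 for Mcm10 on the low side and to 1.58 for Gins2 on the high side. The 2 Ezh2Y646N libraries did not overlap the 2 NrasQ61K libraries in 1 of 48 genes, where groups did not overlap, with Ezh2Y646N higher, in 21.1% of all tested genes. Non-overlap with Ezh2Y646N lower was found in 0 of 48 genes, against 23.1% of all tested genes.

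**Figure D2:**
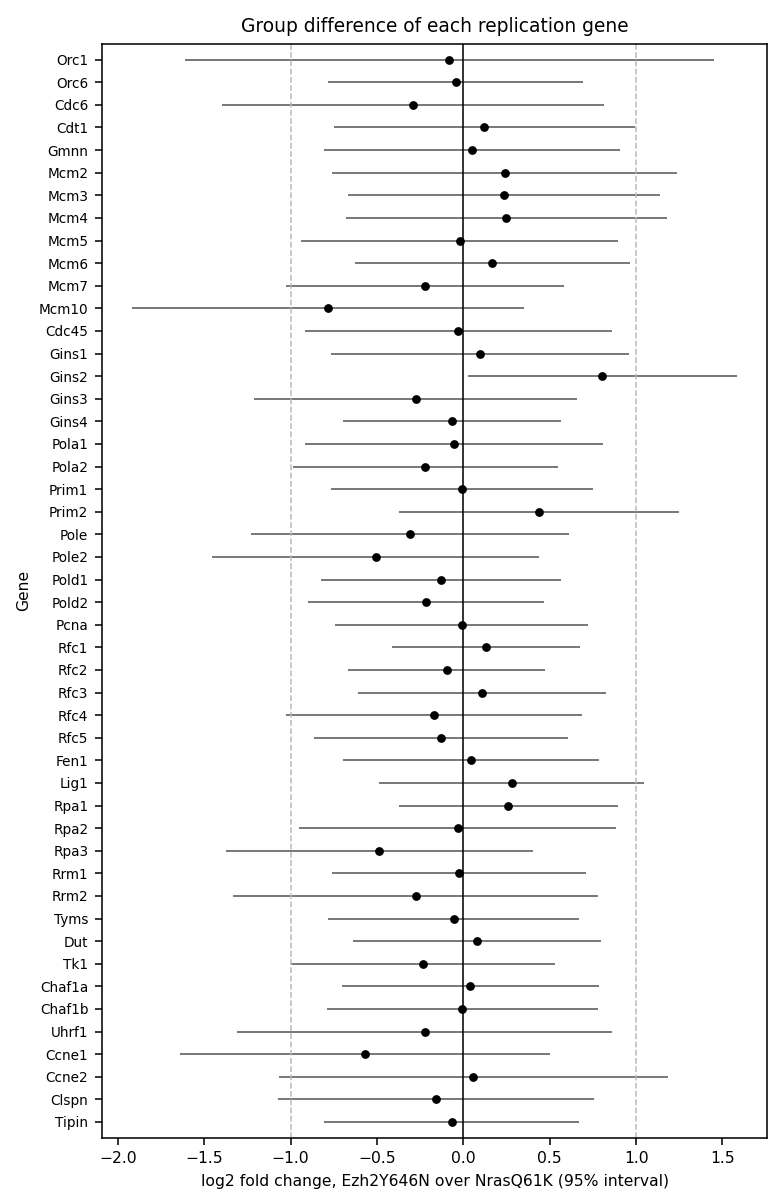
Log2 fold change of Ezh2Y646N over NrasQ61K for each replication gene (points) with its 95% interval from edgeR's fit (lines); dashed lines mark a 2-fold change either way. The intervals of 47 genes cross 0, and that of Gins2 lies between 0.03 and 1.58.

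The promoters of these genes were searched for the E2F site, written out as TTTCCCGC, TTTGGCGC, TTTCGCGC and TTTGCCGC on either strand. RefSeq windows of 300 bases on GRCm38.p6, holding 250 bases before and 50 after a transcription start, were at hand for 38 of the 48 genes, in 44 windows. Gins1, Gins2, Gins4, Gmnn, Mcm4, Pole, Prim2, Rfc2, Tipin and Ccne2 had none. A match was found in 15 of the 38 genes (39.5%), against 2.6% of the 27025 genes with windows. The CCAAT box, letters CCAAT, was present in 24 of 38 (63.2%) against 41.1% of genes, and the CHR element of mitotic promoters, letters TTTGAA, in 5 of 38 (13.2%) against 20.2%. A match of letters describes the window and does not show that a factor binds there. The 27025 genes were taken whether or not they were expressed here. Most replication genes are known to be under E2F, as described above, so a higher share of matches comes with the choice of list. Whether E2F has a part in the differences between libraries was not tested.

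Matches to the E2F site lay between 185 bases before and 40 bases after a RefSeq transcription start. In 9 genes a match lay wholly before that start. The stretches around 8 of them are shown because they hold the letters most over-represented in the list among the 3 motifs searched. Each is written 5′ to 3′ on the strand of the gene, with matched letters in capitals. Some stretches lie inside the gene's span in GENCODE, which can begin farther upstream than the RefSeq start. That span begins at 56303321 for Uhrf1 and at 138172422 for Mcm7. The stretches of Mcm5 and Pola1 lie before theirs. The stretches are chr4:108579407-108579453 (plus strand) for Orc1, chr11:98907993-98908040 (plus) for Cdc6, chr8:75109340-75109387 (plus) for Mcm5, chr5:138172021-138172068 (minus) for Mcm7, chr8:95633498-95633545 (plus) for Gins3, chrX:93632266-93632313 (minus) for Pola1, chr5:151651209-151651238 (minus) for Rfc3 and chr17:56304108-56304155 (plus) for Uhrf1.
Orc1: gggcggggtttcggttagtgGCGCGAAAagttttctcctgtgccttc
Cdc6: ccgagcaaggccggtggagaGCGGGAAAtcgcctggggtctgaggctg
Mcm5: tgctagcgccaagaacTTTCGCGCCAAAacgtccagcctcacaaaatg
Mcm7: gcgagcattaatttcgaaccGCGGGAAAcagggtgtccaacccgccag
Gins3: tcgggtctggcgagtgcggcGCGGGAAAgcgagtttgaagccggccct
Pola1: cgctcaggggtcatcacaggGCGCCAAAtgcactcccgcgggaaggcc
Rfc3: ccggaagtgacgtcgcacgcTTTCGCGCtc
Uhrf1: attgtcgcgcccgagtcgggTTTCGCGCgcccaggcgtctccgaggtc

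Mcm6 had 3 matches, 2 of them overlapping, and its paralog Mcm2 had none. Their 250 bases before the start are set side by side because both subunits occupy the same ring and both were higher in replicate 1 of each group. The stretches are chr1:128359706-128359955 (minus strand) for Mcm6 and chr6:88898781-88899030 (minus strand) for Mcm2.
Mcm6: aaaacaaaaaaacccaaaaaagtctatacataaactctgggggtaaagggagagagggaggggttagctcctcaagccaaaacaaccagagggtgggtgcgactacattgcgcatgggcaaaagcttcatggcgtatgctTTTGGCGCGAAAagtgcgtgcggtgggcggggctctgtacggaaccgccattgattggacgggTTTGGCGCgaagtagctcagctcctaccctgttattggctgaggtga
Mcm2: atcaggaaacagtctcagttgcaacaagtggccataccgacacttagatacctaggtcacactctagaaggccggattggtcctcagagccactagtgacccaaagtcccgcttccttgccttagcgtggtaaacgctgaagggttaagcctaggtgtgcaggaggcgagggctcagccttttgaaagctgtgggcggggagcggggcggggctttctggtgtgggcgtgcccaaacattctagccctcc

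Among the genes that license origins, Orc1, the largest subunit of the origin recognition complex, had the lowest level per length of the 48 genes, with a mean of 6.32 TPM (counts divided by exon length and scaled to a sum of 1000000). Cdc6, the ATPase that joins the complex to load the helicase, was at 16.1 and 7.94 CPM in the Ezh2Y646N libraries and at 20.2 and 9.30 CPM in the NrasQ61K libraries. Cdt1, its partner in loading, was at 22.8 and 16.6 CPM in Ezh2Y646N and at 24.01 and 12.2 CPM in NrasQ61K. Both genes had a high and a low library in each group, and the groups overlapped. The log2 fold change was -0.29 for Cdc6 (SE 0.48) and 0.12 for Cdt1 (SE 0.38). Geminin (Gmnn), which binds Cdt1 and blocks a second round of licensing, was at 16.5 and 12.6 CPM against 18.2 and 9.93 CPM in NrasQ61K, a log2 fold change of 0.05. It had the highest mean level per length of this role, at 38.0 TPM. Orc1 varied most between replicates in this role: it was 3.495-fold higher in replicate 1 than in replicate 2 of Ezh2Y646N and 2.31-fold higher in NrasQ61K. Orc6, another subunit, was 1.52-fold higher in its highest library than in its lowest.

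The helicase subunits Mcm2 to Mcm7 form a single ring in which each occurs once. All of them were higher in replicate 1 than in replicate 2 of both groups, with median log2 ratios of 0.91 in Ezh2Y646N and 0.93 in NrasQ61K. Mcm6 was at 161 and 85.4 CPM in the Ezh2Y646N libraries and at 132 and 88.0 CPM in the NrasQ61K libraries. Mcm4 was at 119.7 and 60.1 CPM against 98.8 and 52.7 CPM in NrasQ61K. Mcm7 was at 114 and 70.9 CPM against 139 and 76.5 CPM in NrasQ61K. For Mcm4 and Mcm6 the highest library was Ezh2Y646N replicate 1, and for Mcm7 it was NrasQ61K replicate 1. The log2 fold changes of these 3 genes were 0.25 (SE 0.40), 0.17 (SE 0.34) and -0.22 (SE 0.35). Mcm2, Mcm3 and Mcm5 had log2 fold changes of 0.24, 0.24 and -0.02. Per length, Mcm2 was the lowest subunit in every library, at 59.7 and 27.3 TPM in Ezh2Y646N and at 58.7 and 26.8 TPM in NrasQ61K. The highest subunit stood 2.08-fold and 2.45-fold above Mcm2 in the Ezh2Y646N libraries and 2.33-fold and 2.70-fold above it in the NrasQ61K libraries.

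Of the factors that activate the helicase, Mcm10 and Gins2 had the estimates farthest from 0 among the 48 genes, in opposite directions. Mcm10, a scaffold needed for the helicase to start moving (GRCm38 chromosome 2, 4989714 to 5012791), was at 20.9 and 9.46 CPM in the Ezh2Y646N libraries and at 36.4 and 16.0 CPM in the NrasQ61K libraries. Its log2 fold change was -0.78 with SE 0.49 and, in edgeR, an adjusted p of 0.565, and Ezh2Y646N replicate 1 lay above NrasQ61K replicate 2. With 1 library left out it ran between -1.47 and -0.07. Gins2, a GINS subunit (chromosome 8, 120578633 to 120589304), was at 28.2 and 16.7 CPM in the Ezh2Y646N libraries, both above the 14.1 and 11.7 CPM of the NrasQ61K libraries. Means were 22.5 ± 8.14 CPM in Ezh2Y646N and 12.9 ± 1.72 CPM in NrasQ61K (SD, n = 2 each). Its log2 fold change was 0.81 with SE 0.34, and edgeR gave an unadjusted p of 0.0442 and an adjusted p of 0.33. With 1 library left out the fold change ran between 0.38 and 1.13.

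The Gins2 count is uncertain. Of its 4097 annotated exon bases, 2758 (67.3%) are also exon of Gse1, a gene on the opposite strand, and the strand setting of the counting is not given in the sources used here. Gse1 was at 139.8 and 165 CPM in the Ezh2Y646N libraries and at 159 and 119 CPM in the NrasQ61K libraries, an order of libraries that differs from that of Gins2. Whether reads of Gse1 entered the Gins2 count was not tested. The other GINS subunits had log2 fold changes between -0.28 (Gins3) and 0.10 (Gins1). Gins4 was at 30.4 and 21.3 CPM against 27.7 and 26.4 CPM in NrasQ61K, and had the highest level per length of this role, with a mean of 75.7 TPM. Cdc45, which completes the active helicase, had a log2 fold change of -0.03. Other members that share exon bases with a counted gene on the opposite strand include Chaf1a, for which 52.5% of exon bases lie in Ubxn6; in all, 12 of the 48 genes share some exon bases with another counted gene, 2 of them over 50%.

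None of the 8 polymerase and primase genes passed the test. Their log2 fold changes had a median of -0.17 and were below 0 in 7 of 8 cases, where 46% of all tested genes were above 0. Prim2, the large primase subunit, was the exception at 0.44 (SE 0.35), with 35.0 and 20.1 CPM in the Ezh2Y646N libraries and 24.3 and 16.4 CPM in the NrasQ61K libraries. Pole2, an accessory subunit of the leading-strand polymerase epsilon, was at 12.7 and 6.01 CPM in Ezh2Y646N and at 12.1 and 14.5 CPM in NrasQ61K, a log2 fold change of -0.51 (SE 0.41) that ran between -1.15 and -0.08 with 1 library left out. It was the only gene of the 48 in which NrasQ61K replicate 2 was the highest library. Pold2, a subunit of the lagging-strand polymerase delta and at 33.2 TPM the highest of this role per length, was at 16.8 and 13.1 CPM against 19.3 and 15.4 CPM in NrasQ61K. Its libraries were 1.47-fold apart at most. The catalytic subunits Pola1, Pole and Pold1 were higher in replicate 1 than in replicate 2 of both groups, with log2 ratios of 0.83, 0.85 and 0.36 in Ezh2Y646N and 0.88, 0.99 and 0.66 in NrasQ61K.

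Pcna had the highest level per length of all 48 genes, with a mean of 142 TPM. It was at 115 and 60.6 CPM in the Ezh2Y646N libraries and at 92.6 and 84.4 CPM in the NrasQ61K libraries, a log2 fold change of -0.01 (SE 0.32). The 2 Ezh2Y646N libraries were farther apart than the 2 NrasQ61K libraries and lay on both sides of them. Rfc1, the large subunit of the loader that opens the clamp, was at 138 and 119 CPM against 133 and 102 CPM in NrasQ61K, and Lig1, the ligase that joins Okazaki fragments, was at 119 and 85.7 CPM against 109.5 and 58.9 CPM in NrasQ61K. Their log2 fold changes were 0.13 (SE 0.23) and 0.28 (SE 0.33). This role varied least between replicates, with median log2 ratios of 0.35 in Ezh2Y646N and 0.45 in NrasQ61K. Rfc2 had the smallest range of the 48 genes, 1.23-fold between its highest and lowest library, followed by Rfc3 at 1.31-fold and Rfc1 at 1.36-fold. Fen1, the flap endonuclease, had a log2 fold change of 0.05.

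Replication protein A coats the exposed single strands. Its large subunit Rpa1 was at 109.8 and 73.6 CPM in the Ezh2Y646N libraries and at 86.8 and 66.3 CPM in the NrasQ61K libraries, a log2 fold change of 0.26 (SE 0.27). Its smallest subunit Rpa3 was at 12.3 and 8.77 CPM against 19.1 and 10.5 CPM in NrasQ61K, a log2 fold change of -0.49 (SE 0.38). Neither passed the test, and Rpa2 had a log2 fold change of -0.03.

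Among the enzymes of nucleotide supply, Rrm2, the subunit of ribonucleotide reductase made mainly in S phase, was at 68.0 and 31.1 CPM in the Ezh2Y646N libraries and at 82.3 and 37.9 CPM in the NrasQ61K libraries. It was the nucleotide gene with the widest spread, 2.65-fold between its highest and lowest library, and its log2 fold change was -0.28 (SE 0.45). Tk1, the cytosolic thymidine kinase, was at 25.3 and 23.96 CPM against 37.7 and 20.2 CPM in NrasQ61K. In Tk1 the 2 Ezh2Y646N libraries were nearly equal and lay between the NrasQ61K libraries. Rrm1, Tyms and Dut had log2 fold changes of -0.02, -0.06 and 0.08.

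Uhrf1, which recruits the maintenance DNA methyltransferase to newly copied DNA, was at 153 and 73.7 CPM in the Ezh2Y646N libraries and at 188 and 76.5 CPM in the NrasQ61K libraries, a log2 fold change of -0.22 (SE 0.47). Chaf1a, the large subunit of the histone chaperone CAF-1, was at 53.1 and 55.6 CPM in Ezh2Y646N and at 69.5 and 36.3 CPM in NrasQ61K. It was the only gene of the 48 in which Ezh2Y646N replicate 2 exceeded replicate 1, by less than counting error allows to tell. Ubxn6, which shares exon bases with Chaf1a, was at 34.6 and 47.2 CPM in Ezh2Y646N and at 32.6 and 43.1 CPM in NrasQ61K. Whether reads of Ubxn6 entered the Chaf1a count was not tested. Cyclin E1 (Ccne1), which with its kinase triggers S phase, was at 10.0003 and 4.97 CPM in Ezh2Y646N and at 14.3 and 7.96 CPM in NrasQ61K, a log2 fold change of -0.57 with SE 0.46 and, in edgeR, an adjusted p of 0.682. With 1 library left out it ran between -1.16 and -0.09. The fork protection genes Clspn and Tipin had log2 fold changes of -0.16 and -0.07. Clspn was at 69.5 and 37.4 CPM against 78.8 and 40.6 CPM in NrasQ61K, and Tipin at 36.9 and 27.4 CPM against 42.3 and 25.2 CPM in NrasQ61K. In both, the order of the libraries had NrasQ61K replicate 1 first and Ezh2Y646N replicate 1 second.

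The difference between libraries within a group ran through almost the whole list. Replicate 1 exceeded replicate 2 in 47 of 48 genes in Ezh2Y646N, where 50.4% of all tested genes did so, and in 47 of 48 in NrasQ61K, where 49.6% did. Both held in 46 genes (95.8%), against 27.7% of all tested genes, and the exceptions were Chaf1a and Pole2. The median log2 ratio of replicate 1 over replicate 2 was 0.63 in Ezh2Y646N and 0.80 in NrasQ61K, while over all tested genes both medians were close to 0 (0.00086 and -0.0049). The exact 95% counting interval of this ratio, which covers the reads of these libraries only, lay above 0 in 43 genes in Ezh2Y646N and in 45 in NrasQ61K. Among all tested genes it lay above 0 in 29.8% and 33.5%. It lay below 0 in 0 of the 48 genes in each group, against 30.0% and 33.7% of all tested genes. For the 2 exceptions it included 0, at -0.20 to 0.07 for Chaf1a in Ezh2Y646N and -0.53 to 0.0055 for Pole2 in NrasQ61K. Between the libraries of different groups, Ezh2Y646N replicate 1 exceeded NrasQ61K replicate 2 in 47 of 48 genes (median log2 ratio 0.63), against 48.7% of all tested genes (median -0.013). Ezh2Y646N replicate 2 exceeded NrasQ61K replicate 1 in 1 of 48 (median -0.62), against 47.7% (median -0.03). The libraries at the same level were closer. Ezh2Y646N replicate 1 exceeded NrasQ61K replicate 1 in 17 of 48 genes (median -0.08), against 46.5% (median -0.05). Ezh2Y646N replicate 2 exceeded NrasQ61K replicate 2 in 24 of 48 (median -0.01), against 49.3% (median -0.0031).

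**Figure D3:**
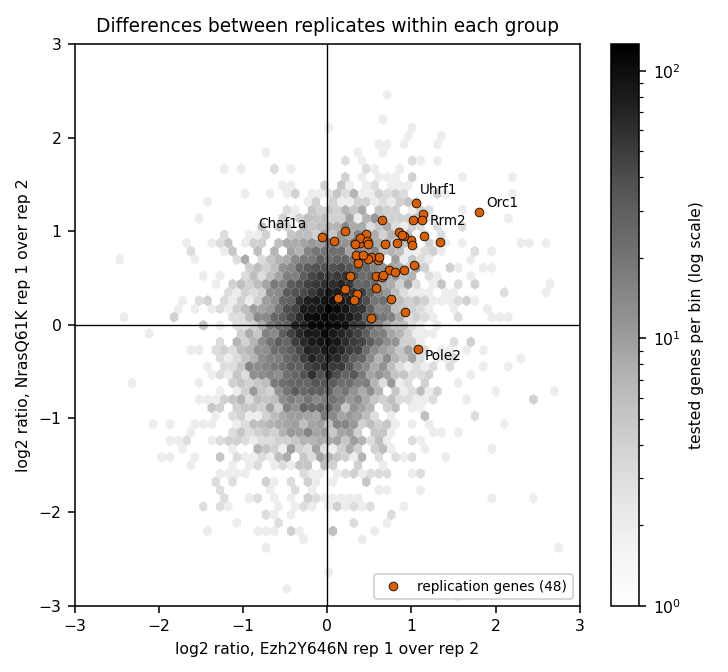
Log2 ratio of replicate 1 over replicate 2 in Ezh2Y646N (x axis) and in NrasQ61K (y axis) for the 48 replication genes (orange) over all tested genes with ratios inside the axes (grey bins, darker with more genes on a log scale). The replication genes fill the upper right of the plot, where both ratios are above 0, except for Chaf1a and Pole2, while all genes centre on 0.

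In 45 of the 48 genes the 2 libraries numbered 1 were the 2 highest. The 4 orders this takes in were found in 6.3%, 4.88%, 2.88% and 2.69% of all tested genes. The commonest full order, from highest to lowest, was NrasQ61K replicate 1, Ezh2Y646N replicate 1, NrasQ61K replicate 2 and Ezh2Y646N replicate 2, found in 16 genes (33.3%) and in 6.3% of all tested genes. The same order with its last 2 libraries exchanged was found in 14 genes and in 4.88% of all tested genes. Ezh2 had this second order. NrasQ61K replicate 1 was the highest and NrasQ61K replicate 2 the lowest library in 15 genes, against 7.97% of all tested genes, and the first was at least 2-fold above the second in 6 genes, against 5.22%. The size of the difference varied over the list. The highest library stood 1.23-fold to 3.85-fold above the lowest, with a median of 1.91-fold. A 2-fold range was reached by 18 genes, a count not made over all tested genes. Mcm10, Orc1 and Ccne1 had the widest ranges. Genes with a large ratio in one group tended only weakly to have one in the other, with Pearson's r of 0.25 and Spearman's rho of 0.29 over the 48 genes. Over 14101 tested genes the values were 0.13 and 0.16; the points of each set share the same 4 libraries, and genes are not independent replicates.

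Total counts were higher in replicate 1 of Ezh2Y646N and in replicate 2 of NrasQ61K. Marker lists of other cells differed between replicates as well, some in the same direction in both groups. All 6 tested hair shaft and root sheath markers were higher in replicate 1 than in replicate 2 of both groups, with summed levels of 451 and 189.5 CPM in the Ezh2Y646N libraries and 2388 and 1374 CPM in the NrasQ61K libraries. Unlike the replication genes, this list also separated the groups, with 4 of 6 markers lower in Ezh2Y646N at an adjusted p under 0.05 in edgeR. Among all tested genes 0.673% were. Basal keratinocyte markers moved the other way, higher in replicate 2 in 5 of 5 cases in Ezh2Y646N and 4 of 5 in NrasQ61K. They summed to 11359 and 17088 CPM in Ezh2Y646N and to 8749.95 and 21126 CPM in NrasQ61K. Endothelial markers were higher in replicate 1 in 5 of 5 cases in both groups, with sums of 123 and 73.2 CPM in Ezh2Y646N and 203 and 172 CPM in NrasQ61K. Among 8 melanocyte markers, replicate 1 was higher for 6 in Ezh2Y646N and for 1 in NrasQ61K. Macrophage markers were higher in replicate 1 for 1 of 6 genes in each group, with sums of 25.1 and 56.5 CPM in Ezh2Y646N and 78.9 and 154 CPM in NrasQ61K. Fibroblast markers differed in direction, with replicate 1 higher for 1 of 6 in Ezh2Y646N, where they summed to 802 and 2017 CPM, and for 6 of 6 in NrasQ61K, where they summed to 3998 and 2332 CPM. So did suprabasal keratinocyte markers (5 of 6 and 0 of 6), Schwann cell markers (4 of 4 and 0 of 4) and erythroid markers (4 of 5 and 1 of 5), in Ezh2Y646N and in NrasQ61K in that order. Of 3 tested T cell markers, replicate 1 was higher for 1 in Ezh2Y646N and for 0 in NrasQ61K. Other cell lists differed between the groups as well. In edgeR's test 2 of 6 suprabasal keratinocyte and 1 of 4 Schwann cell markers were called higher in Ezh2Y646N, against 1.1% of all tested genes. The remaining lists held no marker called in edgeR. DESeq2 called 6 of 6 suprabasal, 6 of 6 hair and 3 of 4 Schwann cell markers, against 6.5% of all tested genes. It also called 3 of 6 macrophage, 2 of 6 fibroblast and 1 of 5 endothelial markers, and 0 in the other cell lists. Voom called 4 suprabasal and 5 hair markers and 0 in the other cell lists, against 1.48% of all tested genes. Both Ezh2Y646N libraries lay below both NrasQ61K libraries for 6 of 6 fibroblast, 5 of 6 macrophage and 4 of 5 endothelial markers, against 23.1% of all tested genes. This held for 0 of 5 basal keratinocyte markers. The part of any of these cells in the replication pattern was not tested.

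The rest of the replication machinery and the genes of neighbouring cell cycle steps were compared through lists of their own. None of the 43 other replication genes passed edgeR's test, where 1.77% of all tested genes did. An unadjusted p under 0.05 was found for 0 of them, against 14.3% of all tested genes. DESeq2 and voom gave the same counts of 0. Of their log2 fold changes 15 were above 0 and 28 below, with a median of -0.21, where 46% of all tested genes were above 0. Replicate 1 was above replicate 2 for 32 of them in Ezh2Y646N and 37 in NrasQ61K. Those with the smallest p were Mtbp (-0.68), which helps fire origins, Samhd1 (0.46), which degrades nucleotides, the checkpoint kinase gene Atr (-0.60) and Rrm2b (0.55), the reductase subunit used outside S phase. Samhd1 was higher in both Ezh2Y646N libraries, at 70.5 and 79.6 CPM, than in the NrasQ61K libraries, at 54.3 and 54.5 CPM, with edgeR's adjusted p at 0.40. Mtbp was lower in both, at 15.4 and 12.6 CPM against 26.3 and 18.5 CPM in NrasQ61K, with edgeR's adjusted p at 0.37. The groups did not overlap, with Ezh2Y646N higher, in 4 of the 43 genes, against 21.1% of all tested genes. With Ezh2Y646N lower they did not overlap in 7, against 23.1%.

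Regulators of the G1 to S transition, 31 genes, also gave 0 calls in edgeR, where 1.77% of all tested genes were called. Of their log2 fold changes 7 were above 0 and 24 below, with a median of -0.29, where 46% of all tested genes were above 0. An unadjusted p under 0.05 was found for 3 of them in edgeR, against 14.3% of all tested genes. Voom called 0, where it called 1.48% of all tested genes. DESeq2 called 2, Ccnd2 and Cdk6, where it called 6.5% of all tested genes. Cyclin D2 (Ccnd2) was at 180.01 and 146 CPM in the Ezh2Y646N libraries and at 675 and 353 CPM in the NrasQ61K libraries, a log2 fold change of -1.66 with SE 0.34 and, in edgeR, an adjusted p of 0.0616. Cdk6, a kinase that D cyclins activate, was at 165 and 139 CPM against 94.1 and 80.4 CPM in NrasQ61K (0.80, SE 0.22, edgeR's adjusted p = 0.135). The third was Cdkn1a, an inhibitor of cyclin-dependent kinases, at 195 and 158 CPM against 111 and 113 CPM in NrasQ61K (0.65, SE 0.22, edgeR's adjusted p = 0.213). In each of the 3 genes the libraries of the groups did not overlap, as was the case with Ezh2Y646N higher in 21.1% and with Ezh2Y646N lower in 23.1% of all tested genes. E2f2, an activating E2F factor, had a log2 fold change of -0.82, and its NrasQ61K libraries, at 55.6 and 25.9 CPM, were both above the 25.4 and 20.6 CPM of the Ezh2Y646N libraries.

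Mitosis genes stood for a later step of the cell cycle. Of 30 genes 0 passed edgeR's test, against 1.77% of all tested genes, and 0 had an unadjusted p under 0.05, against 14.3%. DESeq2 and voom also called 0, each with 1 unadjusted p under 0.05, against 14.4% and 14% of all tested genes. The list had 2 log2 fold changes above 0 and 28 below and a median of -0.39, where 46% of all tested genes were above 0. Replicate 1 was above replicate 2 for 27 genes in Ezh2Y646N and for 30 in NrasQ61K, with median log2 ratios of 0.34 and 1.17. Their summed level was 2953 and 2205 CPM in the Ezh2Y646N libraries and 4578 and 1930.3 CPM in the NrasQ61K libraries. NrasQ61K replicate 1 stood apart from the other 3 libraries in mitosis genes, whereas in the 48 replication genes Ezh2Y646N replicate 1 was close to it. Replication-dependent histone genes have RNA that is made in S phase and mostly lacks a poly(A) tail, and the libraries were made from total RNA. This list was taken by symbol, and whether the RNA of each gene lacks the tail was not checked. Of 66 genes 55 were tested and 0 passed edgeR's test, against 1.77% of all tested genes. An unadjusted p under 0.05 was found in edgeR for 4, against 14.3%. Log2 fold changes were above 0 in 8 and below in 47, where 46% of all tested genes were above 0, and the median was -0.36. Voom called 0 and DESeq2 called 1, Hist1h2bn, where they called 1.48% and 6.5% of all tested genes. Replicate 1 was above replicate 2 for 53 of them in NrasQ61K and for 32 in Ezh2Y646N. Histone genes are close copies of each other, so the counts of single ones are uncertain. Whether these lists differ from the 48 genes was not tested.

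**Figure D4:**
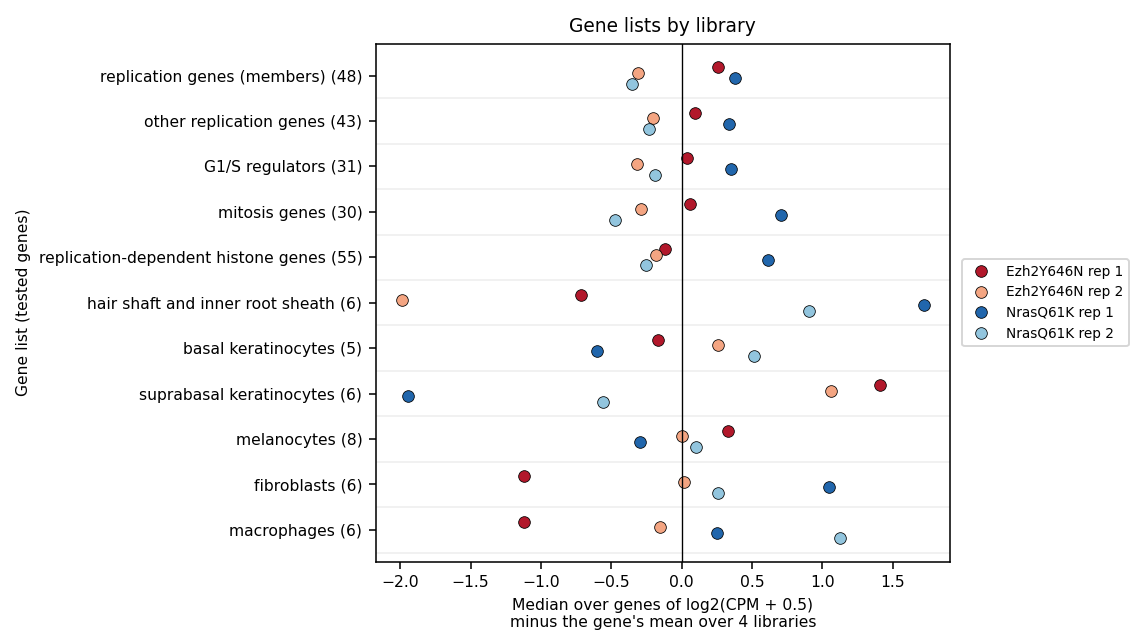
For each gene list (rows, with the number of tested genes), the median over its genes of log2(CPM + 0.5) minus the gene's mean over the 4 libraries (x axis), with a point for each library. The 48 replication genes have medians of 0.26 and -0.31 in the Ezh2Y646N libraries and 0.38 and -0.36 in the NrasQ61K libraries; in the mitosis and histone lists NrasQ61K replicate 1 lies alone on the right.

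Genes with and without an E2F match in the promoter windows described above had overlapping ratios between replicates. In Ezh2Y646N the log2 ratio of replicate 1 over replicate 2 had a median of 0.83 in the 15 genes with a match, with a range of 0.31 to 1.81, and of 0.58 in the 23 genes without one, with a range of -0.07 to 1.15. In NrasQ61K the median was 0.90 with a match (range -0.26 to 1.30) and 0.73 without one (range 0.13 to 1.19). The log2 fold change between the groups had a median of -0.08 with a match and of -0.03 without one. These are descriptions of the members, without a test.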

How the data were processed

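Each library's deposited file lists, for every Ensembl gene, the authors' raw read count, with no scaling. Tools named in the submitters' processing notes, with no role or order stated, are featureCounts, STAR 2.5.4b, Trimmomatic, bcl2fastq 2.19 and edgeR, and the build is GRCm38. No source used here gives the annotation release, the strand setting or a gene filter. The labels' protocols describe a stranded total RNA kit for low inputs, with depletion of ribosomal RNA. GENCODE M21 supplied symbols, positions and exon lengths, and held 22291 of the 22524 identifiers.

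The count test was edgeR 4.0.16 (R 4.3.3), by its robust quasi-likelihood fit with TMM scaling and the group as the only term. filterByExpr, at its defaults of 10 counts and a total of 15, left 14265 genes, all 48 replication genes among them with 35 to 2980 counts per library. Benjamini-Hochberg adjustment ran over these genes, and calls used 0.05. A standard error is the fold change divided by the root of its F value, and 95% intervals used the fit's degrees of freedom. CPM used TMM-adjusted library sizes, and TPM the union of a gene's exons. The fit was tested on simulated data.

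Alternatives were DESeq2 1.42.0, limma 3.58.1 voom, RLE size factors, no filter, a fit that was not robust, removal of mitochondrial, haemoglobin and small RNA genes, a replicate block and each library left out. The members and the gene lists were chosen with earlier results of these data known, so members are described by counts and medians beside all genes. In each role, full values, meaning the CPM of each library, are given for the 2 members of smallest p and the member of highest mean TPM. From the lists of other replication genes and G1 to S regulators, the 4 genes of smallest p are named with their fold changes. The other lists are described as wholes, with Hist1h2bn named for its call in DESeq2. Other genes, such as Rfc2, were named after their values were seen. Krt85, a hair marker, was not found by symbol and was not used. Promoter windows are from RefSeq. Intervals on shares are Wilson intervals, and those on ratios of counts are exact (SciPy 1.17.1).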

Additional observations from a re-analysis of the deposited data

How the results depend on the processing

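The number of replication genes past the threshold was 0 under every alternative run: size factors by RLE, no filter on low counts, DESeq2, limma voom, a fit that was not robust, removal of mitochondrial, haemoglobin and small RNA genes, the replicate block and each library left out. The smallest adjusted p among the 48 genes ran between 0.0888 and 0.401 over these fits. The count over all genes depended more on the fit: 253 genes became 1302 without the filter and 927 in DESeq2, and it ran between 92 and 1123 when 1 library was left out, with the lone library of a group assumed to vary like the others. The cause was not tested. The median log2 fold change of the 48 genes ran between -0.36 and 0.38 with 1 library left out, and the counts of genes above and below 0 ran between 4 above with 44 below and 43 above with 5 below. The commonest library order held 15 or 16 genes in every scaling.

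The replicate numbers match between the groups, but the labels do not say that they mark a shared animal, litter or day, and there are only 2 pairs. The correlation of same-numbered deviations from the group means was 0.14 over all genes and 0.24 over the 48. With the replicate number as a block, 1337 of all genes and 0 of the 48 passed, with a smallest adjusted p of 0.0888 and a median log2 fold change of -0.04.

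No named replication gene passed the threshold in any fit, and 43 of the 48 fold changes changed sign with a library left out. Another alternative changed the sign of 7, all among these 43. Neither count was made over all tested genes. Pcna was 0.0115 on the log2 scale under RLE and 0.0114 in DESeq2, and ran between -0.55 and 0.37 with a library left out. For the other genes with full values whose sign changed, the ranges with a library left out were -0.25 to 0.68 for Cdt1, -0.28 to 0.55 for Gmnn, -0.33 to 0.77 for Mcm4, -0.36 to 0.55 for Mcm6, -0.0178 to 0.78 for Prim2, -0.0563 to 0.51 for Rpa1, -0.89 to 0.37 for Cdc6, -0.60 to 0.27 for Mcm7 and -0.34 to 0.16 for Gins4. They were -0.95 to 0.39 for Rrm2, -0.31 to 0.58 for Chaf1a, -0.85 to 0.56 for Uhrf1, -0.67 to 0.40 for Clspn, -0.35 to 0.35 for Tipin, -0.81 to 0.0047 for Rpa3, -0.57 to 0.28 for Tk1, -0.0063 to 0.34 for Rfc1 and -0.0570 to 0.79 for Lig1. With 2 libraries a group, an exact permutation test of a single value cannot go below p = 0.333.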
